A study of Bos taurus with 14 samples.

Results

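Genes for translation factors and aminoacyl-tRNA synthetases were followed in Holstein cattle (Bos taurus) given β-cryptoxanthin, a carotenoid of the provitamin A group. An oral dose of 0.2 mg/kg was given on day 0 to heifers or steers, and RNA was taken from liver or from neutrophils of the blood. Liver of animals 58, 61 and 66 and neutrophils of animals 25, 26, 32 and 34 were sampled on day 0 and again on day 7, which gave 14 arrays in 4 groups. All animals were treated and no untreated animals were analysed here, so a change over the 7 days cannot be told apart from an effect of the carotenoid. Of 15011 distinct probes on the array, 51 belonged to these genes. A probe was taken when its gene name (24 probes) or the symbol in brackets in its description (6 probes) began with EIF1 to EIF6 or EEF, or when its description named a tRNA synthetase (21 probes). EIF2AK kinases were left out. Another 10 probes describe a translation factor without such a symbol and lie outside that rule.

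Translation starts when initiation factors bring the initiator methionyl-tRNA and the small ribosomal subunit to the capped messenger RNA. eIF2 carries the initiator tRNA, eIF2B reloads eIF2 with GTP, eIF3 is the large scaffold on the small subunit, and the eIF4 proteins bind the cap and unwind the message. Elongation factor 1 then delivers each aminoacyl-tRNA and elongation factor 2 moves the ribosome along. The tRNA synthetases join each amino acid to its tRNA, with separate sets of enzymes for the cytosol and for mitochondria. The liver, which makes most plasma proteins, translates heavily, and mature neutrophils carry far less translation machinery.

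Each member was read by a single spot with a single probe of 60 bases, so each value below rests on the sequence and the place of that spot. The probes behind the liver results are shown by the last 30 bases of the probe as the array files list it, and those for VARS2 and EEF1A2 in full. Capitals mark AATAAA, the hexamer of the polyadenylation signal, here a match of letters and not a mapped site.
MARS1: tggacaatAATAAATAAAtgtacaatctaa
EEF2: ttagtgccattggaatAATAAActcgacat
GARS1: tggcaacttaagaccatttgctctAATAAA
WARS2: ggtttcaAATAAAgcagtgttccgaaaccc
TARS1: gcctttggagattactgcagatcaatgttt
WARS1: tctcacagcttaaaagctgcctttaacgtt
VARS2: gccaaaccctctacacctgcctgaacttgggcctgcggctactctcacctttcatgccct
EEF1A1 (probe ABR35): caggttctaggaaaAATAAAagatgctgga
EEF1A1 (probe ABR8658): gataattacaAATAAAccactaaacattca
EEF1A2: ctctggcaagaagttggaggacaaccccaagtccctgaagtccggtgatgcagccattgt
The MARS1 probe holds the hexamer 2 times with shared bases, and its GC content of 23.3% is the lowest of the 51 members (median 45%, against 43.3% over all probes). The hexamer was found on the listed strand of 14 member probes (27.5%) and of 11.3% of all probes. Its reverse complement TTTATT, the same search on the opposite strand, was found in 1 member probe (1.96%) and in 4.18% of all probes. Both EEF1A1 probes carry the hexamer and share no run of letters longer than 7 bases. The EEF1A2 probe shares at most 5 bases in a row with either of them.

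The names follow today's symbols where an accession, gene number, symbol or synonym in the file allowed it (44 of 51 members). HARS1 comes from the file's name HARSL by a synonym alone, so its place among the cytosolic enzymes rests on that synonym. The probe named EIF2C3 is AGO3, an Argonaute protein of the microRNA machinery with an old initiation factor name. The probe described as histidyl-tRNA synthetase 2 maps to DTD1, a deacylase that removes D-amino acids from mischarged tRNA. VARS2 keeps the file's name, and whether it is the cytosolic or the mitochondrial valyl enzyme is not settled. EIF4GI is the file's name for the scaffold eIF4G1.

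Levels are log2 of the processed spot signal relative to the 75th percentile of the same array, so 1 unit is a factor of 2, and levels of different probes were not compared. Between 57.1 and 76.7% of the spots of an array were well above background, the lowest share on the day 7 neutrophil array of animal 34. Slide 1 held the liver arrays and slide 2 those of neutrophils. Day 0 arrays lay in the upper position of both slides and day 7 arrays in the lower, so day and place on the slide cannot be told apart. All 8 hepatocyte markers were well above background on every liver array, and all 6 neutrophil markers present were so on every neutrophil array. The 6 were also well above background on every day 0 liver array, where 5 were lower than in neutrophils and LTF was higher (2.10, limma, adjusted p = 0.00224). In neutrophils, 5 of the 8 hepatocyte markers were above background on no day 0 array. Of the 51 members, EIF2B2, EIF5, a probe similar to the cytosolic arginyl enzyme and a probe for the mitochondrial phenylalanyl enzyme were too dim to be tested in any comparison.

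In liver, 6 of the 45 members tested differed between day 7 and day 0: GARS1, WARS2, TARS1 and VARS2 rose, and MARS1 and EEF2 fell. That is 13.3% of the members, against 3.99% of all 10930 probes tested (4 higher against a background of 2.67%, 2 lower against 1.32%; limma blocked by animal, Benjamini-Hochberg adjusted p under 0.05). Of the 6, 4 had their spots in the first or last 16 of the 192 spot rows, and TARS1 and VARS2 lay in column 82, the last column. None of the 37 members tested in the interior of the array was called, and all 37 had changes within 0.3 of 0, from -0.11 to 0.30. Among all probes, 20.8% were called in the outer 16 rows at each end, 20.7% in the last column and 0.705% in the interior. Of the members tested, 4 of 6 in the outer rows and 2 of 2 in the last column were called. With the outer rows and the last column left out, no probe of 9075 was called (968 at an unadjusted p under 0.05, of which 1 was a member, EIF3G at 0.30 ± 0.10, SE). The 64 interior probes called in the fit over all 10930 lost their calls in this smaller fit. An absence of calls there therefore does not show an unchanged interior. The last column was singled out after its values were seen.

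**Figure D1:**
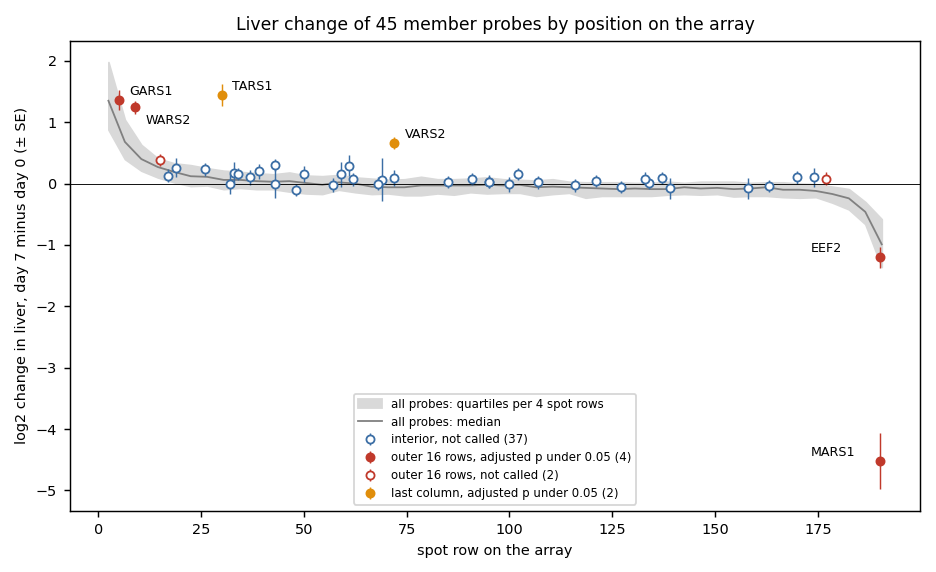
Log2 change in liver (day 7 minus day 0, ± SE, 3 animals) of the 45 members tested, against the spot row on the array, with the median and quartiles of all probes in bins of 4 rows. Filled points have an adjusted p under 0.05. The 37 interior members lie within 0.3 of 0, and the 6 filled points lie in the outer 16 rows (red) or in the last column (orange).

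Initiation factors were flat in liver, and none of the 20 tested was called. EIF1, EIF1AX and EIF1B, which scan for the start codon, changed by 0.03, 0.03 and -0.11. EIF2S1 and EIF2S2, the alpha and beta subunits of eIF2, were at -0.04 ± 0.10 and 0.08 ± 0.10 (SE, 3 animals), and EIF2B4, a subunit of the exchange factor, was at 0.23 ± 0.11. EIF2S1 stood at -0.63, -0.58 and -0.54 in animals 58, 61 and 66 on day 0 and at -0.60, -0.64 and -0.62 on day 7. The days overlapped, and no animal moved by more than 0.08. The 6 eIF3 subunits had a median change of 0.19, between 0.00 for EIF3E and 0.30 for EIF3G. Of the 7 eIF4 members, 6 stayed within 0.3 of 0. The helicases EIF4A1 and EIF4A2 were at 0.26 ± 0.15 and 0.13 ± 0.11, the latter at -0.15 once a trend along the spot rows was removed, and the scaffold EIF4GI was at -0.01 ± 0.12. The exception was EIF4E, the cap-binding protein, at 0.39 ± 0.10 (adjusted p = 0.137), whose spot lies in row 15. Other probes within 2 rows had a median change of 0.24, and EIF4E was at 0.02 (limma, adjusted p = 0.942) with the row trend removed. EIF5A, a factor that helps the ribosome through difficult stretches, was at 0.09.

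Among the elongation factors, 5 of 6 tested were flat in liver and EEF2 was lower. The EEF1A1 probes, for the factor that brings aminoacyl-tRNA, changed by -0.02 ± 0.11 and 0.07 ± 0.11, and EEF1B2, an exchange factor of EEF1A1, by -0.08 ± 0.17. EEF1G, another subunit of that exchange complex, was at 0.10 ± 0.12. EEF2, the translocation factor, stood at 5.69, 5.76 and 5.64 on day 0 and at 4.05, 4.80 and 4.62 on day 7 in animals 58, 61 and 66. All day 7 values lay below all day 0 values. The change was -1.20 ± 0.17 (SE; limma, adjusted p = 0.0391). The spot of EEF2 is in row 190, where 261 other probes within 2 rows had a median change of -0.85 and 38.7% of them were called. Of those neighbours, 26.1% changed more negatively than EEF2. With the trend along the rows removed, EEF2 was at -0.50 (adjusted p = 0.426).

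EEF1A2, a copy of EEF1A1 known for its expression in muscle and neurons, was well above background on no liver array on day 0 and on 1, that of animal 61, on day 7. It was not tested in liver. The 9 skeletal muscle markers were all higher in liver on day 7 (median change 6.35), and their mean level ran from -8.11 to -7.03 on day 0 and from -2.09 to -0.15 on day 7. On day 0, 5 of the 9 were above background on no liver array. Their part in the results for the members was not tested. The measured signal is from bulk tissue, where fewer cells of a type and less RNA per cell cannot be told apart.

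Of the 11 cytosolic synthetases tested in liver, GARS1 and TARS1 rose, MARS1 fell and 8 stayed within 0.3 of 0. Among these 8 were the enzymes for histidine (HARS1, -0.01), leucine (LARS1, 0.00), lysine (0.10), glutamine (QARS1, 0.10), serine (SARS1, -0.03) and tyrosine (YARS1, 0.16), and the phenylalanyl beta-like LOC509118 (0.16). SARS1 stood at 2.40, 2.37 and 2.41 on day 0 and at 2.28, 2.42 and 2.39 on day 7, with overlap between the days.

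MARS1, the methionyl-tRNA synthetase that charges both initiator and elongator tRNA, had the largest change of all members in liver. Animals 58, 61 and 66 stood at -2.29, -2.58 and -2.11 on day 0 and at -6.88, -8.24 and -5.41 on day 7. All day 7 values lay below all day 0 values. Of the day 7 arrays, that of animal 66 alone was well above background, and the value of animal 58 was a surrogate that the scanner software writes for low signals. The fitted change was -4.52 ± 0.46 (SE; limma, adjusted p = 0.0186). After normexp background correction and quantile normalization it was -1.96 (adjusted p = 0.00254). Its spot is in row 190, column 14, beside that of EEF2 in column 16. None of the 261 other probes within 2 rows changed more negatively. With the row trend removed, MARS1 was at -3.82 (adjusted p = 0.0602), and without animal 58 it was at -4.48 (adjusted p = 0.181).

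GARS1, the glycyl enzyme, stood at -1.36, -1.55 and -1.78 on day 0 and at -0.39, -0.06 and -0.17 on day 7 in animals 58, 61 and 66. The days did not overlap, and the change was 1.36 ± 0.16 (SE; limma, adjusted p = 0.0264). In the rows around row 5 the median change was 0.82 and 43.0% of the other probes were called, and GARS1 was at 0.36 (adjusted p = 0.573) with the row trend removed. TARS1, the threonyl enzyme, stood at -0.09, -0.90 and -2.07 on day 0 and at 1.07, 1.0 and -0.81 on day 7. It rose in each animal, by 1.17, 1.90 and 1.27, while the levels of the days overlapped. The change was 1.44 ± 0.18 (SE; limma, adjusted p = 0.0287), and 1.39 (adjusted p = 0.0721) with the row trend removed. In the last column, 91.2% of 91 other probes changed less than TARS1.

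The probes in the last column also varied more between the liver animals. The median SD over the 3 animals on day 0 was 1.1 in that column, 0.27 in the outer rows and 0.22 in the interior. In neutrophils the same 3 values were 0.22, 0.24 and 0.25. TARS1 had an SD of 1.0 on day 0 in liver and WARS1, the tryptophanyl enzyme in the same column, 2.57. WARS1 stood at -3.22, -2.86 and -7.48 on day 0 and at -5.78, -4.27 and -7.67 on day 7. It was above background in 2 of 3 animals on day 0 and in 1 of 3 on day 7, and was not tested in liver.

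Of the 5 mitochondrial synthetases tested, WARS2 rose in liver and the other 4, IARS2, SARS2 and the leucyl and phenylalanyl enzymes, lay between -0.05 and 0.16. WARS2, the mitochondrial tryptophanyl enzyme, stood at -5.17, -5.09 and -5.58 on day 0 and at -4.08, -3.81 and -4.22 on day 7. The days did not overlap, and the change was 1.24 ± 0.11 (SE; limma, adjusted p = 0.0152), and 0.61 (adjusted p = 0.017) after normexp and quantile normalization. Around its row 9 the median change was 0.46 with 17.4% of the probes called, and WARS2 was at 0.53 (adjusted p = 0.249) with the row trend removed. VARS2 stood at -1.96, -1.68 and -3.13 on day 0 and at -1.19, -1.13 and -2.47 on day 7. It rose in each animal, with overlap between the days. The change was 0.66 ± 0.10 (SE; limma, adjusted p = 0.0481) in row 72 of the last column, where 65.9% of the other probes changed less. With the row trend removed, VARS2 was at 0.72 (adjusted p = 0.122). That trend runs along rows alone, so for TARS1 and VARS2 its removal does not address the last column.

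**Figure D2:**
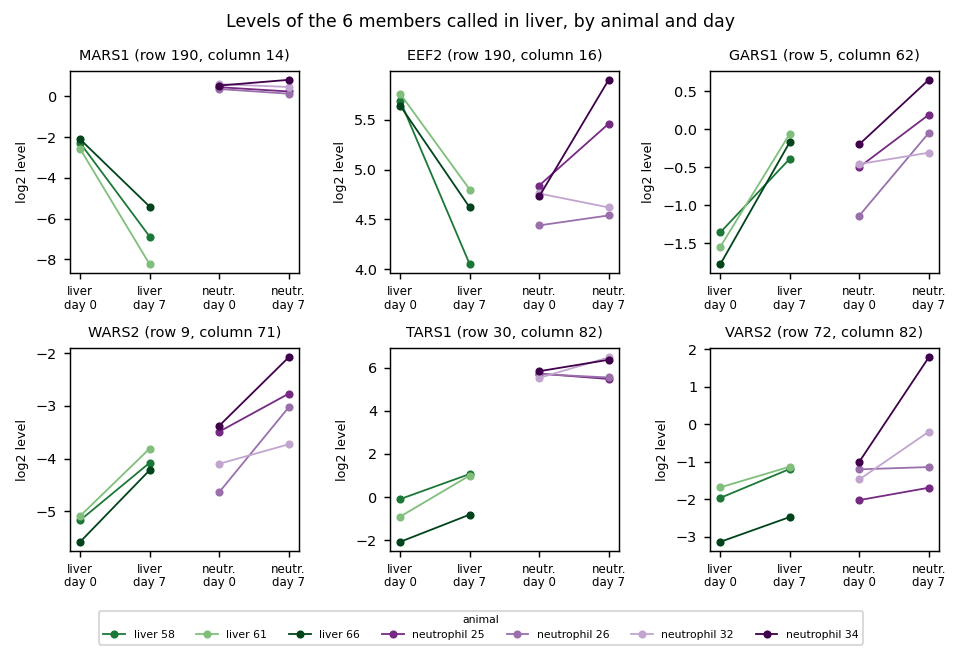
Levels (log2 relative to the 75th percentile of the array) of the 6 members called in liver, with 1 line per animal from day 0 to day 7 in liver (green) and neutrophils (purple). MARS1 and EEF2 are lower on day 7 in all 3 liver animals, GARS1, WARS2, TARS1 and VARS2 are higher in all 3, and TARS1 and VARS2 differ more between liver animals than between the days.

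The liver count was 6 under normexp with quantile normalization and with the authors' deposited value table, and 5 under quantile normalization alone. With the row trend removed, none of the 45 members was called (background 0.302%). Without animal 58 no member was called, and without animal 61 or animal 66 MARS1 alone was. Without the animal as a block, 3 members were called (GARS1, WARS2 and MARS1; background 1.94%), and TARS1 was at an adjusted p of 0.58.

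In neutrophils, none of the 46 members tested was called, nor was any of the 9448 probes (background 0%; limma, 1268 probes at an unadjusted p under 0.05). At that unadjusted threshold 8 of the 46 members passed, and all 8 were higher on day 7. They were the mitochondrial leucyl enzyme, WARS2, EEF1B2, both EEF1A1 probes, GARS1, EIF3H and VARS2. This set, and its single direction, rested in part on animal 34. With that animal left out, both EEF1A1 probes, EIF3H and VARS2 missed the threshold. LOC509118, LARS1, YARS1 and AGO3 met it with positive changes, and DTD1 met it with a negative change of -0.67. With all 4 animals in, the 1268 probes were not split by direction, so the direction of the 8 has no background. Whatever their p, 25 of the 46 member changes and 4211 of the 9448 probe changes were above 0. The mitochondrial leucyl enzyme stood at -2.67, -3.48, -2.81 and -2.64 on day 0 and at -1.51, -1.84, -2.20 and -1.51 on day 7 in animals 25, 26, 32 and 34. All day 7 values lay above all day 0 values, but the change of 1.13 ± 0.27 (SE; limma) had an adjusted p of 0.298. WARS2 was at 1.0 ± 0.29 (adjusted p = 0.311) and GARS1 at 0.70 ± 0.26 (adjusted p = 0.339), both higher in each of the 4 animals.

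The elongation factors had a median change of 0.71 in neutrophils, against -0.07 over all probes. The EEF1A1 probe ABR35 changed by 0.78, 1.24, -0.11 and 2.16 in animals 25, 26, 32 and 34, and the probe ABR8658 by 0.87, 1.1, 0.00 and 1.51. EEF1B2 changed by 0.85, 1.59, 0.03 and 1.56. These values were positive in animals 25, 26 and 34 and near 0 in animal 32, with fitted changes of 1.02 ± 0.38, 0.87 ± 0.31 and 1.01 ± 0.33 and adjusted p from 0.325 to 0.339 (limma). EEF2 was at 0.44 ± 0.30 and EEF1A2 at 0.55 ± 0.36, and at 0.19 and 0.35 without animal 34. EEF1E1, a synthetase complex protein with an elongation factor name, was at -0.32 ± 0.34, and at 0.04 without animal 34. Without that animal the EEF1A1 probe ABR35 was at 0.64. EEF1G was not tested, since it was above background on 3 of 4 arrays on day 0 and on 2 of 4 on day 7. Beside these values, the median of the T cell markers moved by 0.67, 1.22, 0.57 and -1.06 in the same order of animals. In animal 34 these markers ran from -4.03 for LCK to 0.53 for CD3E, with all but CD3E below 0. The median of the 2 B cell markers present moved by 0.59, 1.25, 1.06 and -0.66. All 5 T cell markers were well above background on every day 0 neutrophil array, with mean levels from -2.22 to -1.57 on day 0 and from -3.03 to -1.06 on day 7. Of the 5 stellate and fibroblast markers, 4 were on the array and 3 of these were above background on no day 0 neutrophil array. Their mean level ran from -6.75 to -6.05 on day 0 and from -5.80 to -3.67 on day 7. COL3A1, a fibrillar collagen, changed by 4.26, 6.40, 0.47 and 2.20 in animals 25, 26, 32 and 34, and DCN, a matrix proteoglycan, by 2.86, 4.87, 0.44 and 2.76, and on day 7 they were above background on 2 and 3 of 4 arrays. COL1A2 changed by 0.05, 1.26, 0.25 and -0.13 and COL1A1 by -0.45, -0.35, 1.19 and -0.06. The changes of COL3A1 and DCN were, like those of EEF1A1 and EEF1B2, smallest in animal 32. The other 2 markers differed: COL1A1 had its highest value in animal 32, and COL1A2 its lowest in animal 34. COL3A1 and DCN rose most in animal 26, and both EEF1A1 probes in animal 34. EEF1B2 rose most in animal 26, by 1.59, close to its 1.56 in animal 34. The part of any of these cells in the results was not tested.

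The 7 eIF4 members had a median change of -0.62 in neutrophils, and this value rested on the day 7 array of animal 34. EIF4GI changed by -1.32, 0.40, 0.65 and -3.20 in animals 25, 26, 32 and 34, EIF4A1 by -0.17, -0.43, 0.26 and -2.54, and EIF4B, which assists the helicase, by 0.51, 0.05, -0.26 and -2.77. EIF5A changed by -0.15, 0.38, -0.37 and -2.85. In each of these 4 the value of animal 34 was the lowest, and its day 7 level was not well above background. Without animal 34 the median of the eIF4 members was -0.09, that of the elongation factors 0.49, and EIF5A was at -0.04. On that array, with 57.1% of its spots well above background, 22 of the 46 members had moved by more than 1, against 3 to 10 in the other animals. The same count was not made over all probes. EIF4E departed from its group in animal 32, where it changed by 1.63, against -0.14, -0.46 and 0.25 in animals 25, 26 and 34.

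No other initiation factor was called either. EIF1, EIF1B and EIF1AX were at -0.26, -0.27 and -0.32, and the value of EIF1 was below 0 in animals 25, 26 and 32 and not in animal 34. Without animal 34 the median of these 3 was -0.49. EIF2S1 was at 0.65 ± 0.28 (adjusted p = 0.373) and EIF2S2 at -0.45 ± 0.27 (adjusted p = 0.462; -0.24 without animal 34), and EIF2B4 was at 0.04 ± 0.26. The eIF3 subunits had a median of 0.25, with EIF3H highest at 0.76, and at 0.48 without animal 34. Of the 12 cytosolic synthetases tested, 6 lay within 0.3 of 0, among them MARS1 at -0.08 ± 0.24. Over all members, 14 of 46 changes were within 0.3 of 0 in neutrophils (30.4%, against a background of 44.8%), and in liver 38 of 45 (84.4%, against 74.0%).

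**Figure D3:**
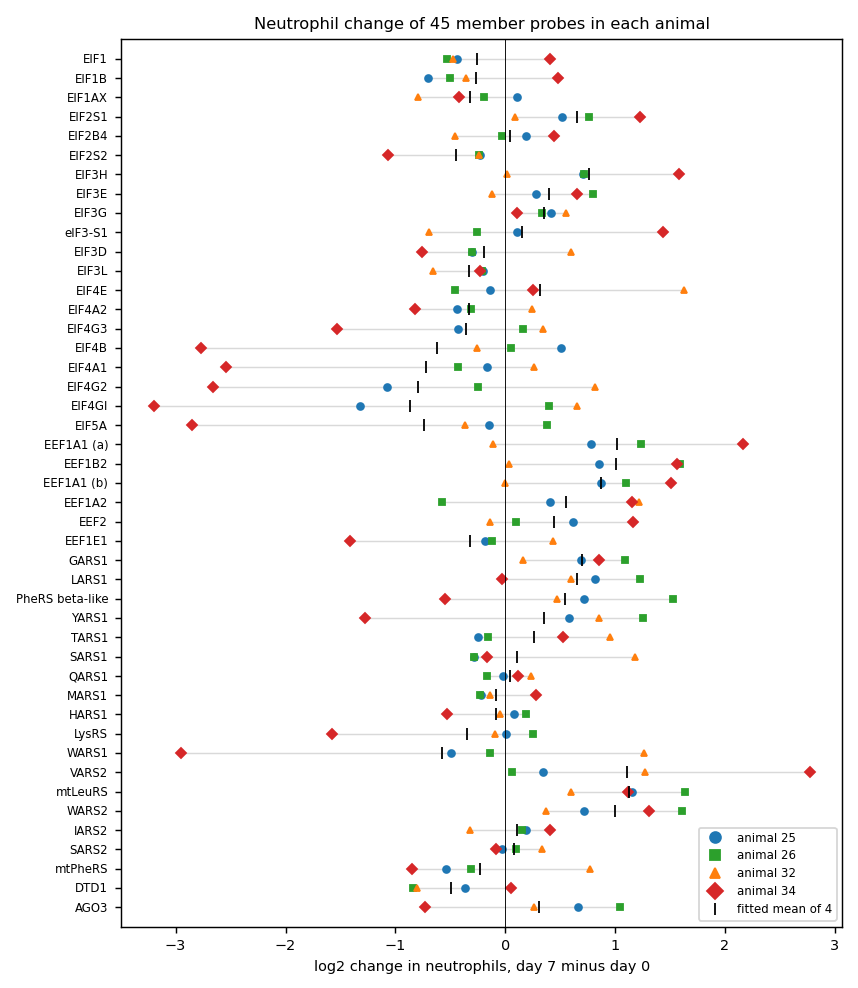
Log2 change in neutrophils (day 7 minus day 0) of 45 of the 46 members tested in each of the 4 animals, by role from top to bottom, with the fitted mean as a vertical tick. EEF1A1 (a) is probe ABR35 and (b) probe ABR8658. Animal 34 (red diamonds) is the lowest point for EIF4GI, EIF5A, EIF4B, EIF4G2 and EIF4A1, and the mitochondrial leucyl enzyme is above 0 in all 4.

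Whether the change over 7 days differed between the tissues was tested in 1 model over all 14 arrays. Of 44 members, MARS1 alone was called (2.27%, against 1.17% of 8838 probes, and 0.43% in that direction). Its liver change minus its neutrophil change was -4.44 ± 0.50 (SE; limma, adjusted p = 0.00941), and -3.92 (adjusted p = 0.0292) with the row trend removed. After normexp and quantile normalization it was -1.60 (adjusted p = 0.0148). Without liver animal 58 it was -4.40 (adjusted p = 0.0508). In neutrophils MARS1 stood at 0.45, 0.36, 0.60 and 0.53 on day 0 and at 0.24, 0.13, 0.46 and 0.81 on day 7, with overlap between the days. EEF2 was at -1.64 ± 0.37 (adjusted p = 0.0874), and did not pass. It was at -1.83 (adjusted p = 0.0485) without neutrophil animal 32, at -1.43 (adjusted p = 0.378) without liver animal 58 and at -1.12 (adjusted p = 0.328) with the row trend removed. The probes of the EEF1 complex that were flat in liver and positive in neutrophils had differences of -1.04, -0.80 and -1.09 (EEF1A1 ABR35, EEF1A1 ABR8658, EEF1B2), with adjusted p from 0.308 to 0.406.

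Before supplementation, on day 0, the tissues differed in 39 of 46 members: 22 were higher in liver (background 39.7%) and 17 in neutrophils (background 43.4%; 84.8% in all, against 83.2% of 11494 probes; limma, adjusted p under 0.05). The share was near that of all probes. On the day 7 arrays 28 of the 39 were called again, in the same direction, and 11 were not. Since each tissue has its own animals and its own slide, tissue, animals and slide cannot be told apart.

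By role, the eIF4 members were mostly higher in neutrophils and the elongation factors higher in liver. Of 7 eIF4 members, 6 were lower in liver (median -1.55, against -0.12 over all probes) and EIF4GI was higher, while of 6 elongation factors 5 were higher in liver (median 1.34) and EEF1E1, at 0.36 ± 0.15, did not pass. EIF4GI stood at -0.80, -0.81 and -0.42 in liver and at -3.30, -3.34, -3.11 and -3.48 in neutrophils, a difference of 2.63 ± 0.17 (SE; limma, adjusted p = 1.65e-06). EIF4G3, a second eIF4G scaffold, stood at -5.14, -4.66 and -5.06 in liver and at -1.26, -1.13, -1.26 and -1.22 in neutrophils, a difference of -3.73 ± 0.17 (adjusted p = 1.97e-07), and -2.34 after normexp and quantile normalization. These scaffolds lay in opposite directions, and for neither did the tissues overlap on any of the 14 arrays. EIF4E was at -2.84 ± 0.17, EIF4A1 at -1.46 ± 0.22 and EIF4A2 at -1.31 ± 0.16. On the day 7 arrays EIF4A1, EIF4B and EIF4G2 were at -0.48, -0.87 and -0.93 and no longer passed (adjusted p from 0.226 to 0.496), and EIF4A2 was at -0.85 (adjusted p = 0.0408). On day 7, EIF4A1, EIF4B and EIF4G2 lay above every liver value in neutrophils of animals 25, 26 and 32. In animal 34 they lay below every liver value, at -4.56, -4.75 and -2.05. A day 7 fit of the tissue difference without animal 34 was not made.

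Among the elongation factors, EEF1A1 was higher in liver by 3.03 ± 0.25 with probe ABR8658 and by 1.67 ± 0.23 with probe ABR35, and EEF1B2 by 2.32 ± 0.30 (limma, adjusted p from 6.48e-06 to 0.000188). On the day 7 arrays these differences were 2.23, 0.63 and 1.23, and that of probe ABR35 no longer passed (adjusted p = 0.279). Probe ABR35 then stood at 4.04, 3.81, 3.32 and 5.54 in neutrophils of animals 25, 26, 32 and 34, against 4.67 to 4.91 in liver. EEF1G was higher in liver by 0.87 (adjusted p = 0.00302), but at 0.22 on the day 7 arrays (adjusted p = 0.796) and at 0.22 after normexp and quantile normalization (adjusted p = 0.0818). Its day 7 neutrophil levels were -5.78, -4.74 and -5.35 in animals 25, 26 and 32 and -2.51 in animal 34, against -4.53 to -4.25 in liver. EEF2 was higher in liver on day 0, at 1.0 ± 0.16 (adjusted p = 0.000372), and on the day 7 arrays it was at -0.64 (adjusted p = 0.188). EEF1A2 went the other way from EEF1A1: it was well above background on 3 of 4 neutrophil arrays and on no liver array on day 0, and at least 3.56-fold higher in neutrophils (mean levels -4.82 and -8.46). That fold sets the neutrophil mean against the weakest signal well above background on each liver array, and it was not tested. The spot of EEF1A2 is in row 182, among the outer 16 rows, and the fold was not worked out with the row trend removed.

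The other initiation factors were divided. EIF1 and EIF1B were lower in liver by -1.66 ± 0.19 and -1.71 ± 0.33, and EIF1AX higher by 1.44 ± 0.27. EIF2S1 and EIF2S2 were higher in liver by 0.94 ± 0.17 and 1.34 ± 0.15. EIF2S1 no longer passed on the day 7 arrays (0.25, adjusted p = 0.524), and EIF2S2 was at 0.89 after normexp and quantile normalization. The day 7 neutrophil levels of EIF2S1 were -1.05, -1.05 and -1.30 in animals 25, 26 and 32 and -0.07 in animal 34, against -0.64 to -0.60 in liver. EIF2B4 did not pass at 0.33 ± 0.15 (adjusted p = 0.061), though it did after quantile normalization (0.58, adjusted p = 0.00459). Of the 6 eIF3 subunits 2 were higher, 2 lower and 2 not called, from -1.69 for EIF3L to 1.2 for the subunit 1 probe. EIF3H, at 0.54 on day 0, was at -0.04 on the day 7 arrays.

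The widest differences between the tissues were among the cytosolic synthetases, where 5 of 12 were higher and 5 lower in liver. GARS1, in row 5, was among the lower at -0.99, but at -0.16 (adjusted p = 0.519) with the row trend removed. SARS1 stood at 2.40, 2.37 and 2.41 in liver and at 6.61, 6.74, 6.54 and 6.81 in neutrophils, a difference of -4.28 ± 0.14 (SE; limma, adjusted p = 4.82e-08) from a spot in the interior of the array. TARS1 was at -6.72 ± 0.41 and WARS1 at -5.58 ± 1.0, both from the last column, where 3.67 and 8.26% of the 109 other probes were lower and the median was -1.25. TARS1 stood at 5.72, 5.70, 5.52 and 5.83 in neutrophils, far above its values in liver given above, with no overlap on any array. MARS1 was at -2.81 ± 0.17 on day 0 and at -7.25 on the day 7 arrays, of which 1 of 3 in liver was well above background, so that the latter size is not a measured one. Higher in liver were the phenylalanyl beta-like LOC509118 (3.09 ± 0.24), YARS1 (2.56 ± 0.27) and the lysyl enzyme (1.68 ± 0.18).

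Of 5 mitochondrial synthetases, 4 were higher in liver. The leucyl enzyme stood at 0.02, 0.31 and 0.53 in liver, above all 4 neutrophil values given above, with a difference of 3.19 ± 0.25 (SE; limma, adjusted p = 4.77e-06), and IARS2, the isoleucyl enzyme, was at 1.97 ± 0.20. WARS2 was lower in liver, at -1.38 ± 0.32, and at -0.76 (adjusted p = 0.0441) with the row trend removed. DTD1 was lower in liver by -1.77 ± 0.20 and AGO3 higher by 1.05 ± 0.28, the latter at 0.78 on the day 7 arrays (adjusted p = 0.0717). Over all 14 arrays the tissues did not overlap for 25 of the 46 members tested (54.3%, against a background of 62.0%).

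**Figure D4:**
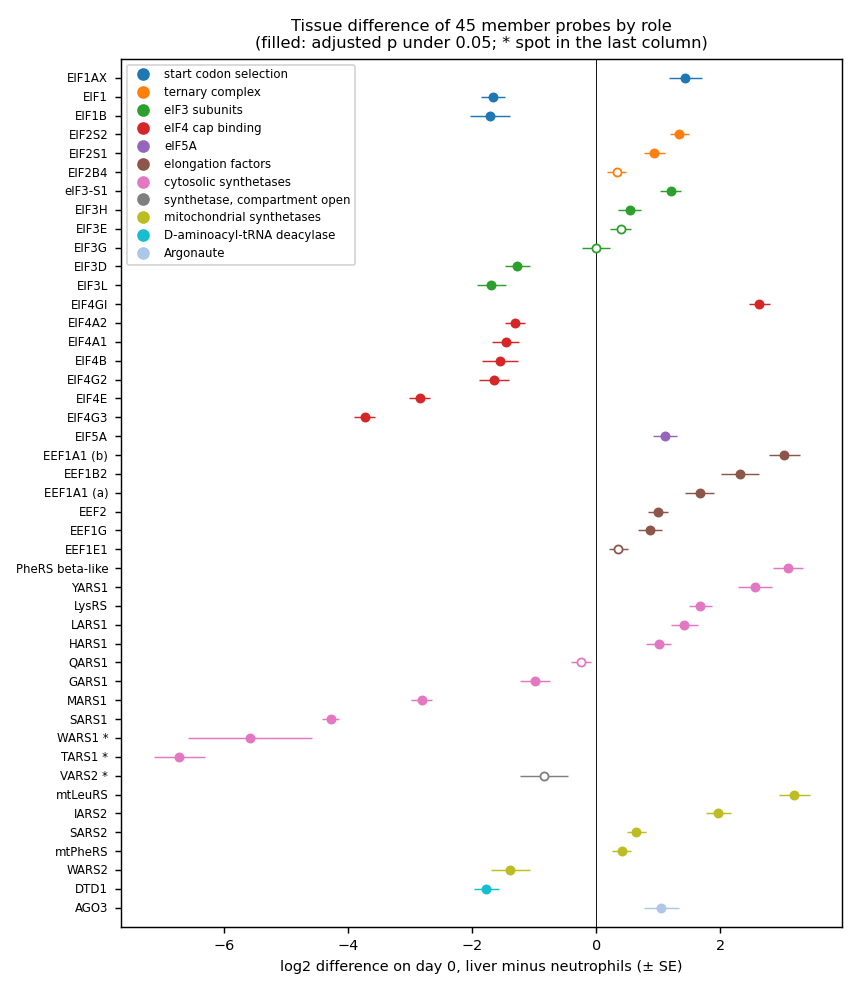
Log2 difference between liver (3 animals) and neutrophils (4 animals) on day 0, ± SE, for 45 of the 46 members tested, by role. EEF1A1 (a) is probe ABR35 and (b) probe ABR8658. Filled points have an adjusted p under 0.05; eIF4 members other than EIF4GI lie left of 0, elongation factors right of 0, and TARS1 and WARS1, from the last column of the array, are the lowest.

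Genes around the pathway were taken from 3 lists. Of the eIF2 kinase and stress response list, 10 of 18 genes were on the array and 1 rose in liver (background 2.67%). It was ASNS, the asparagine synthetase that this response is known to induce, at 1.47 ± 0.19 (limma, adjusted p = 0.0312). Its spot is in row 8, and it was at 0.70 (adjusted p = 0.346) with the row trend removed. TRIB3 and SESN2, other known targets, were at -0.12 and -0.37, and the kinases EIF2AK1, EIF2AK2 and EIF2AK4 at 0.07, -0.14 and 0.35. The rest of the list was PHGDH at 0.44, HSPA5 at -0.29, XBP1 at -0.16 and VLDLR at -1.30 (limma, adjusted p = 0.0718). Of the mTOR and cap regulation list, 7 of 20 were on the array and 1 was lower (background 1.32%). It was MKNK1, the kinase of EIF4E, at -2.07 ± 0.21 (adjusted p = 0.0186), from row 192, and at -1.26 (adjusted p = 0.122) with the row trend removed. Of 22 genes for termination, recycling, the synthetase complex and mitochondrial translation, 12 were on the array, 10 were tested and none was called in liver, with a median change of 0.03. In neutrophils none of the 27 genes of these lists that were tested was called (background 0%).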

How the data were processed

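RNA was labelled with Cy3 by low-input linear amplification, per the labels. The deposited intensity values were processed by Agilent Feature Extraction (9.5 per the submitters' processing notes), which, per the file headers, subtracts background and a spatial trend and writes surrogates for low values. Mean and background intensities served 1 alternative. The log2 values of the authors' deposited table follow the same signals with a constant shift (r = 1.0, medians -3.56 to -2.70). Flags and grid positions, deposited as other columns and scores, set the filters. Control spots and outlier flags were left out, and saturated spots kept.

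Levels were log2 signal minus the array's 75th percentile. Tests used limma 3.58.1 (R 4.3.3; lmFit, eBayes; two-sided; Benjamini-Hochberg over all probes tested) on probes flagged well above background throughout at least 1 group compared (in both tissues for the difference of changes). Errors after ± are SE of the fit. The labels name the same animals on both days; paired deviations correlated by 0.66, 0.36 and 0.68 in liver and 0.63, 0.36, -0.02 and 0.25 in neutrophils. The code was tested on simulated data.

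The rule for named genes took all members called, or the 8 largest per direction without overlap, plus fixed eIF2, eIF2B, eIF4, EEF, MARS and WARS genes. The members and lists were chosen with earlier results of these data known. Names came from a RefSeq gene table (ARS-UCD2.0), for names alone. The row trend was a loess curve (span 0.3) through row medians of each array. P-values over arrays rest on 3 and 4 animals, which limits their precision. A single member is counted in the totals but not reported here by name.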

Additional observations from a re-analysis of the deposited data

Results flagged for a closer look

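Among the named members, levels were screened for an array far from the other 3 of its neutrophil group, with 56 group tests, of which chance alone is set to mark about 1 in 20. The screen marked 2, both on the day 7 neutrophil array of animal 34. EIF4A1 stood there at -4.56, against -2.25 to -2.01 in the other animals, and EIF2S2 at -3.64, against -2.80 to -2.69. MARS1 was marked because its change differed between liver and neutrophils by -4.44 in the test of that difference.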

How the results depend on the processing

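The count of 6 members called in liver became 3 with no replicate block, 3 in 1 fit over all arrays, 0 with no filter on dim probes, 0 with the row trend removed, 0 in the middle spot rows alone (26 tested, of the 6 only VARS2) and 0 with the outer rows and last column left out, an alternative added after the data were seen in which none of the 6 was tested. It was 5 or 6 under the other scalings, the stricter filter and the looser threshold. It ranged from 0 to 1 when each animal was left out. In the interior alone, 968 of all probes tested had an unadjusted p under 0.05 in limma. The MARS1 call on the difference between tissues was 0 for probes well above background on every array, 0 in the middle rows and 0 without the outer rows and last column, where MARS1 was not tested, 2 at an adjusted p of 0.1, and 0 to 2 with each animal left out. The tissue count of 39 was 21 in the middle rows, of 26 tested, and 29 to 43 under the others. The neutrophil count was 0 under all alternatives. EIF4A2 in liver turned to -0.15 with the row trend removed, and EEF2 between tissues to -0.64 on day 7 arrays. No scaling tried moved the median of all probes by more than 0.04.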
